A study of Mus musculus with 13 samples.

Results

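The cytosolic ribosomal protein genes were examined in gastrocnemius muscle of mice with and without a UCP1 transgene. Members were all probes whose gene name on the array follows the pattern of a large-subunit (Rpl) or small-subunit (Rps) protein, plus Rpsa, Rplp0, Rplp1 and Rplp2. Pseudogene names, the Rps6k kinases and Rps19bp were left out. The rule found 85 gene names, with 190 probes, among the 34797 gene names of the array. Of these, 83 genes with 182 probes were well above background on at least 6 of the 13 arrays, which is also the condition that left 17257 genes for testing. The testis-type paralogue Rpl10l reached that level on 0 arrays and Rpl39l on 4 arrays (1 wild type and 3 transgenic), so neither was tested.

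The groups were 6 wild-type mice and 7 littermates that carry a UCP1 transgene, which the sample titles tie to skeletal muscle. All were male adult C57BL/6J mice on a purified diet low in fat, given for 12 weeks. UCP1, the protein by which brown fat mitochondria make heat, short-circuits the proton gradient, and the promoter that drives the transgene is not given in the sources used here. Each mouse was measured on 1 array of 2 colours, with its own RNA in Cy5 and a common pool of samples in Cy3. Values are log2 ratios of the mouse over the pool, and a difference is UCP1 transgenic minus wild type, with its standard error (SE). Each array was counted as 1 replicate. A gene is called higher or lower where its adjusted p from limma over the 17257 genes was under 0.05.

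The ribosome is built from a large and a small subunit, each a scaffold of ribosomal RNA covered by proteins that are present in a single copy apart from those of the stalk. The mRNAs of these proteins are among the most abundant of the cell, and they share a terminal oligopyrimidine (TOP) start, a C followed by a run of C and T, through which their translation answers to mTOR. Striated muscle replaces Rpl3, a protein near the peptidyl transferase centre, in part with its muscle-specific paralogue Rpl3l, which is known to be reduced when muscle grows or regenerates.

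The starts of 5 members are shown because they carry, or lack, the feature that the family is known for. Promoter sequences were taken from RefSeq (GRCm38.p6), which had an entry for 62 of the 83 measured members. Each line gives 30 bases on the coding strand, 10 before the annotated start and 20 from it. Capitals mark the unbroken run of C and T that begins with a C at the start.
Rps6 (chr4:86857348-86857377, minus strand): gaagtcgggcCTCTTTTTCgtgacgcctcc
Rps18 (chr17:33955646-33955675, minus strand): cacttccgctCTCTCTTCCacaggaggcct
Rpl38 (chr11:114668570-114668599, plus strand): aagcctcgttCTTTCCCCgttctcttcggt
Rplp2 (chr7:141447641-141447670, plus strand): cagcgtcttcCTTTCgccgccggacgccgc
Rpl3l (chr17:24727816-24727845, plus strand): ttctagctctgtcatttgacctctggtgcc

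Rps6, Rps18 and Rpl38 start with runs of 9, 9 and 8 such letters and Rplp2 with 5, whereas neither of the starts listed for Rpl3l begins with a C. The lack of a run was not particular to Rpl3l, since 49 of the 62 members had none of at least 5 letters exactly at the start. Among them were Rpl12 and Rps19, both called higher. A C exactly at the annotated start followed by at least 4 letters, each C or T, was found in 13 of the 62 members (21.0%), against 3.01% of all 27025 symbols with a promoter. With the C allowed within 5 bases of the start and at least 5 such letters after it, the shares were 26 of 62 (41.9%) and 11.9%. The letters CCGGAAG, the core bound by ETS factors such as GABP, were found on either strand of the 300-base window in 25 of 62 members (40.3%) and in 9.93% of all symbols. AAGATGGC, the YY1 motif, was found in 9.68% of members and 3.19% of all symbols. CACGTG, the E-box that MYC can bind, was found in 9.68% of members and 8.09% of all symbols. The 13 members with a TOP letter run exactly at the start had a median difference of 0.33, and the 49 others had 0.35. With the C allowed within 5 bases of the start, the medians were 0.35 with the run and 0.35 without it. The 49 others include members with a run near the annotated start, so that split does not divide TOP mRNAs from the rest. With CCGGAAG the median difference was 0.35, and without it 0.35. The 6 members with AAGATGGC had a median difference of 0.23, against 0.35 in the 56 without it, and the 6 with CACGTG had 0.42, against 0.35 without it. A match describes letters only.

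Ucp1 was read first as a check of the labels. Its log2 ratio ran from -0.20 to 0.85 in the transgenic arrays and from -4.23 to -2.82 in 5 wild-type arrays, but was 0.45 on the array labelled wild type 4. On that array the median log2 ratio of the ribosomal protein genes was -0.12, the highest of the 6 wild-type arrays, of which the 5 others ran from -0.22 to -0.15, and below every transgenic array, of which the lowest was 0.14. The wild-type and transgenic arrays had similar numbers of probes well above background, from 20643 to 23022 and from 20728 to 24036.

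Ribosomal protein mRNAs were higher in the transgenic muscle across both subunits. Of the 83 measured members, 68 were called higher, 1 was called lower and 14 did not pass. The background was 16.9% of all genes called higher and 16.1% called lower. The single member called lower was Rpl3l. The median difference of the members was 0.35, or 27.6%, against -0.001 over all genes. Among called members the increases ran from 0.20 to 0.79, that is from 14.9% to 73.4%, and 21 members differed by 0.5 or more. Mice of the same group differed little, with a median within-group SD of 0.13 for members and 0.14 for all genes. In 38 members every transgenic array lay above every wild-type array, which held for 7.47% of all genes, and in 1 member, Rpl3l, every transgenic array lay below, which held for 7.26%. Without the array labelled wild type 4, 68 members were higher and 1 lower (16.7% and 15.9% of all genes), with a median difference of 0.34.

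**Figure D1:**
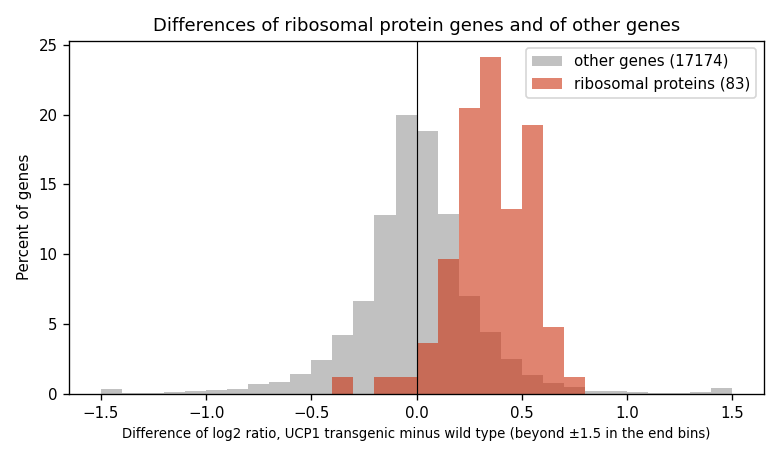
Histogram of the difference of the log2 ratio (UCP1 transgenic minus wild type, horizontal axis) as percent of genes in each bin of 0.1 (vertical axis) for the 83 ribosomal protein genes in red and the other genes in grey. The other genes centre on 0, and the ribosomal protein genes centre on 0.35 with 3 of them below 0.

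The shift was visible in each mouse. The median log2 ratio over the members ran from -0.22 to -0.12 in the 6 wild-type arrays and from 0.14 to 0.23 in the 7 transgenic arrays, so the groups did not overlap. The median over the other genes lay between -0.01 and 0.01 on all 13 arrays, which the loess step itself brings about, since it centres each array near 0. Counted gene by gene, between 2 and 12 members lay above their own 13-array median on a wild-type array, and between 55 and 78 did so on a transgenic array. The arrays lay on 4 slides, each with its own scan and each with both groups, and the median member difference within them was 0.32, 0.32, 0.36 and 0.37. Within every slide, 74 members had a positive difference, against 23.9% of all genes, and 1 member had a negative one. With slide as a fixed block 69 members were higher and 1 lower, against 18.1% and 17.7% of all genes.

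**Figure D2:**
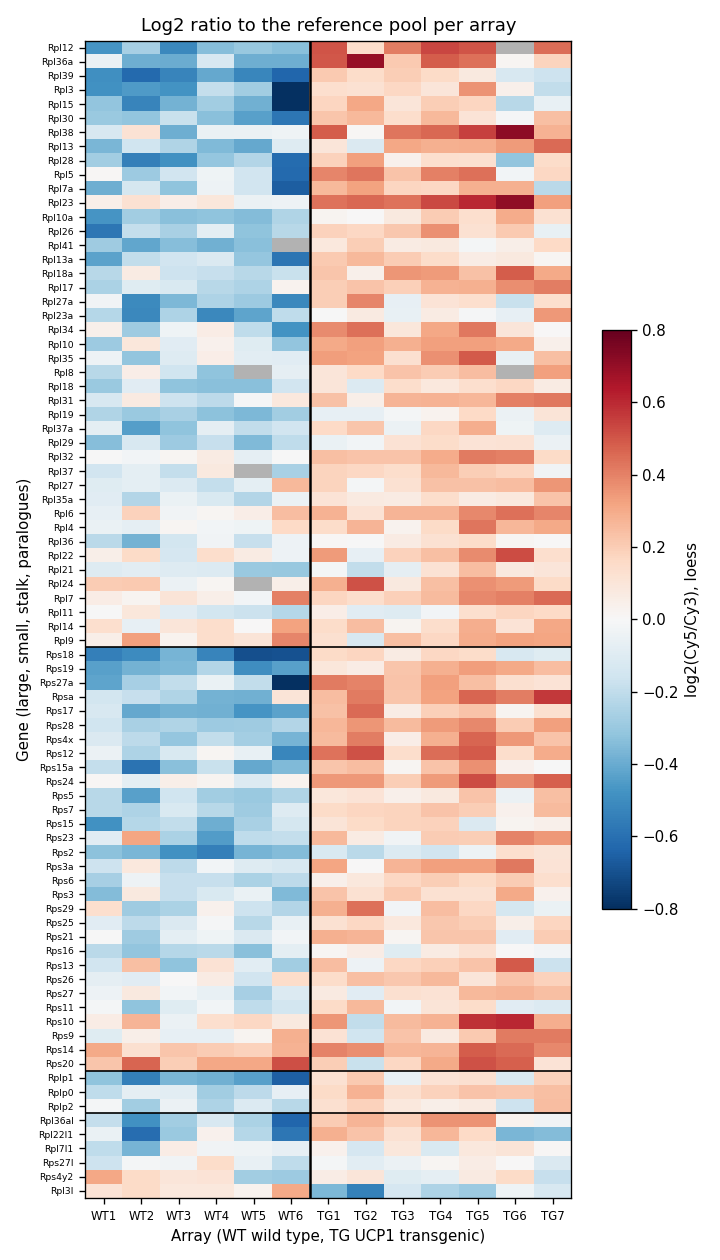
Heat map of the log2 ratio to the reference pool for 82 of the 83 genes (rows, by subunit and then by size of difference) on the 13 arrays (columns, WT wild type and TG UCP1 transgenic). Red is above the pool, blue below it, grey a spot left out for an outlier flag, and most rows change from blue to red at the line between the groups.

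Marker lists of other cell types were counted on the same arrays, against a background of 16.9% of all genes higher and 16.1% lower. Of 9 measured white adipocyte markers, 7 were higher and 1 lower (median 0.42). The lower one was Car3, which fell by 1.31 without overlap, and the largest rise was that of Cfd, by 1.07. The summed Cy5 signal of the list, Car3 included, was 60130 to 101499 on wild-type arrays and 61826 to 83639 on transgenic ones. These sums overlapped, but in a sum a falling gene can offset rising ones. Lep, the gene of leptin, reached the background limit on 0 arrays. Of 4 erythroid markers, 3 were higher (median 0.62; summed signal 17195 to 29674 against 23651 to 47809), and of 6 Schwann cell markers, 4 were higher (median 0.33; 1015 to 1748 against 1626 to 2506). Of 10 muscle fibre markers, 1 was higher and 4 lower (median -0.04), and their summed signal was 1234550 to 1366940 on wild-type arrays and 1072130 to 1219520 on transgenic ones. Of 5 satellite cell and regenerating fibre markers, 1 was higher and 2 lower (median -0.09), and their summed signal was 396205 to 463642 in wild type against 311406 to 378208, with no overlap. Myog, the myogenic factor myogenin, rose by 1.39 and Myh8, the perinatal myosin heavy chain, fell by 0.74, both with no overlap between groups. Of the myosin genes in the muscle fibre list, Myh4 also fell by 0.74 and Myh1 rose by 0.62. Whether the Myh8 probe also reads other myosins was not tested, nor which gene carries the sum of the satellite cell list. Of 5 macrophage markers, 0 were higher and 1 was lower, all 5 had a negative difference (median -0.20), and the summed signal was 2793 to 4556 against 2540 to 2976. Myf5 of the satellite cell list and Cd163 of the macrophage list reached the background limit on 0 arrays. In the other lists, 1 of 5 brown adipocyte, 1 of 6 fibroblast and 1 of 3 lymphocyte markers were higher. Among endothelial markers 1 of 6 was lower, and 0 of 6 smooth muscle and pericyte markers passed. The medians of these lists ran from 0.01 to 0.12. The summed brown adipocyte signal was 1779 to 6990 on wild-type arrays and 2218 to 3812 on transgenic ones. Cidea of that list ran from -2.19 to 1.80 in wild type and from -0.90 to 0.13 in transgenic mice, and did not pass. A link of these values to Ucp1 on the array labelled wild type 4 was not tested. The part of these cell types in the result was not tested, and in whole muscle a change in the share of a cell type and a change in RNA per cell cannot be told apart. Members were also bright, with 81 of 83 in the fifth of all genes that was brightest. Among the other 3371 genes of this bright class, 25.5% were higher and the median difference was -0.04.

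Among the 43 core genes of the large subunit, 37 were higher, none was lower and 6 did not pass, with a median difference of 0.38. The largest difference was that of Rpl12, which sits at the base of the stalk (probe at chr2:32819082-32819298 in mm9, across an exon junction). Its log2 ratio was -0.52 at the lowest, -0.34 at the median and -0.27 at the highest in wild type, and 0.14, 0.47 and 0.53 in the 6 transgenic arrays with a value. The groups did not overlap, and the difference was 0.79 (SE 0.08, adjusted p 2.3e-07). A second Rpl12 probe gave 0.73. On 1 transgenic array the spot had an outlier flag and was dropped.

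Rpl36a, a protein of the tRNA exit site, ran from -0.40 to -0.05 in wild type and from 0.02 to 0.70 in transgenic mice, a difference of 0.65 (SE 0.10, adjusted p 4.6e-05). Its groups did not overlap. Rpl39, a small protein that lines the exit tunnel, ran from -0.63 to -0.41 and from -0.17 to 0.21, a difference of 0.60 (SE 0.07, adjusted p 3.4e-06). Rpl39 was also separated completely. Rpl41, the shortest ribosomal protein, rose by 0.44 (SE 0.06). Rpl38, known for its role in the translation of Hox mRNAs, rose by 0.51 (SE 0.10). Rpl13a, which also has roles outside the ribosome, rose by 0.44 (SE 0.08), and Rpl10, a late-joining protein that contacts the peptidyl transferase centre, rose by 0.38 (SE 0.08).

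Rpl5 and Rpl11 form a complex with 5S RNA that also binds Mdm2. Rpl5 ran from -0.62 to 0.01 in wild type and from -0.02 to 0.44 in transgenic mice and rose by 0.50 (SE 0.10, adjusted p 0.00064), with overlap at the edge. Rpl11 had a difference of 0.14 (SE 0.07, adjusted p 0.16) at its brightest probe, and its 2 other probes gave 0.30 and 0.21, both of which passed. The difference between Rpl5 and Rpl11 was not tested.

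All 3 stalk genes rose. The stalk is the flexible arm of the large subunit that recruits the elongation factors. Rplp0, its anchor, ran from -0.28 to -0.06 in wild type and from 0.13 to 0.28 in transgenic mice, a difference of 0.35 (SE 0.06, adjusted p 0.00011). Rplp1 rose by 0.53 (SE 0.07, adjusted p 1.3e-05), again with no overlap. Rplp2, the partner of Rplp1 in the stalk dimers, rose by 0.24 (SE 0.07, adjusted p 0.015), and its groups overlapped.

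Among the 31 core genes of the small subunit, 26 were higher, none was lower and 5 did not pass, with a median difference of 0.35. Rps18, a protein of the head of the subunit, ran from -0.70 to -0.37 in wild type and from -0.13 to 0.17 in transgenic mice, a difference of 0.63 (SE 0.07, adjusted p 2.1e-06). Rps19, the gene most often mutated in Diamond-Blackfan anaemia, ran from -0.49 to -0.24 and from 0.06 to 0.33, a difference of 0.61 (SE 0.07, adjusted p 6.9e-07). Both were separated completely between groups.

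Rps27a, made as a fusion with ubiquitin, ran from -0.80 to -0.05 in wild type and from 0.11 to 0.42 in transgenic mice. It rose by 0.59 (SE 0.10), and a second probe gave 0.24 (SE 0.07). Rpsa, also known as the laminin receptor, ran from -0.38 to 0.10 and from 0.22 to 0.57, and rose by 0.58 (SE 0.08). In both genes the lowest transgenic array lay above the highest wild-type array. Rps6, the substrate of the S6 kinases, rose by 0.33 (SE 0.06, adjusted p 0.00022), and Rps3, at the mRNA entry channel, rose by 0.33 (SE 0.08, adjusted p 0.0021). Rps14, on the platform of the subunit, differed by 0.16 (SE 0.06, adjusted p 0.052) and did not pass.

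**Figure D3:**
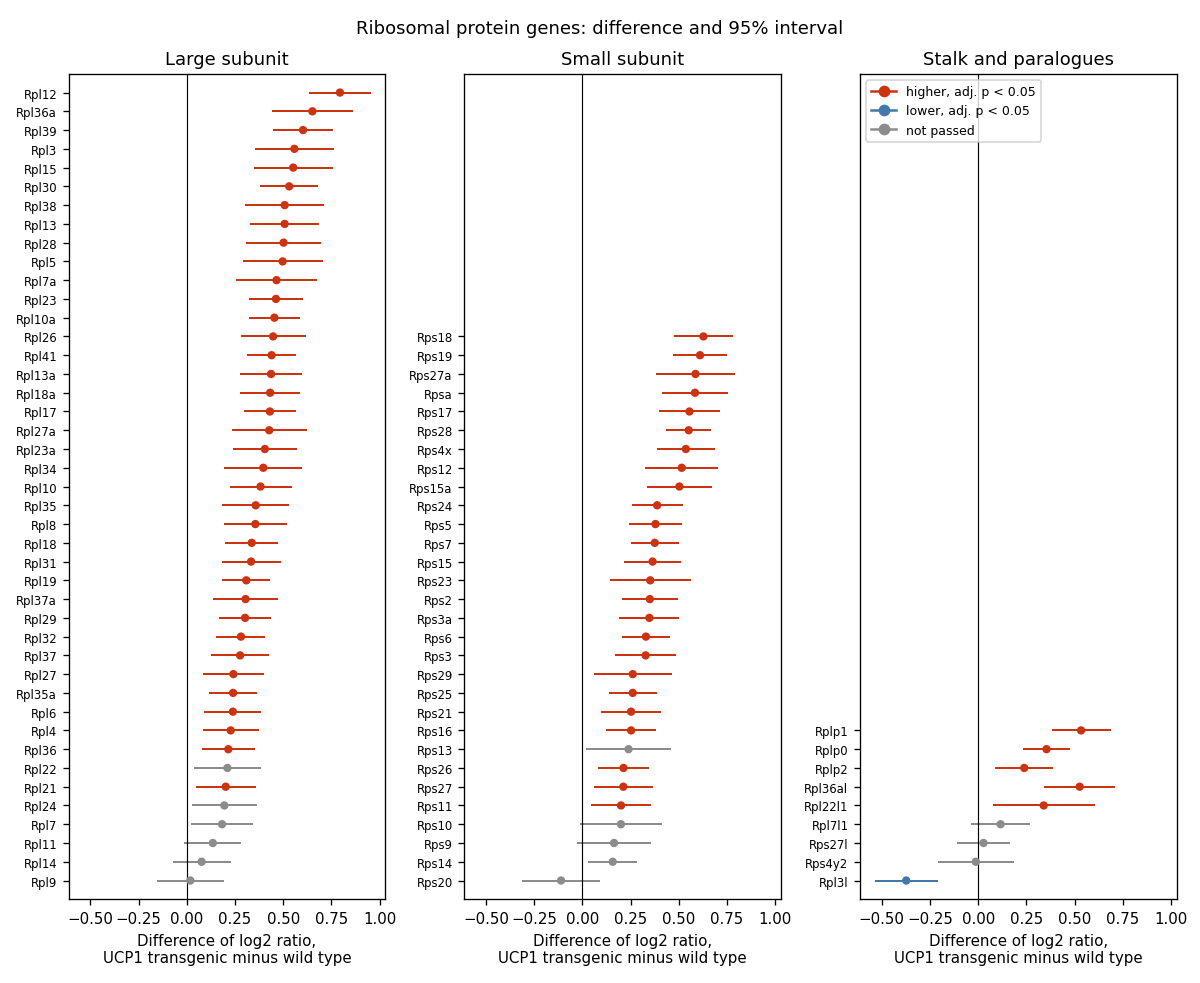
Difference of the log2 ratio (horizontal axis, UCP1 transgenic minus wild type) with its 95% confidence interval from limma for 82 of the 83 genes, in panels for the large subunit, the small subunit, and the stalk and paralogues. Red marks genes called higher, blue the gene called lower (Rpl3l) and grey those that did not pass; all 3 stalk genes are red.

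Of the 14 members that did not pass, 11 were core genes and 3 were paralogues, and they are named here after their values were seen. In 8 core genes the brightest probe, which stood for the gene, did not pass while another probe was called higher. These were Rpl7, Rpl9, Rpl11, Rpl14, Rpl22, Rpl24, Rps10 and Rps13. For Rpl9 the brightest probe gave 0.02 (95% interval -0.16 to 0.19) and the second gave 0.32 (SE 0.08). For Rpl22 the values were 0.21 (SE 0.08) and 0.49 (SE 0.09). For Rpl7 the brightest gave 0.18 and the 3 others gave 0.33, 0.33 and 0.30. The other 6, Rps9, Rps14, Rps20, Rps27l, Rps4y2 and Rpl7l1, had a single kept probe each. Rps20, the core gene with a negative difference, ran from 0.20 to 0.52 in wild type and from -0.18 to 0.51 in transgenic mice (difference -0.11, SE 0.10, adjusted p 0.41).

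Counted by probe, 154 of 182 kept probes were higher and 1 was lower, against 16% and 15.8% of all 22716 kept probes. Of 56 genes with several kept probes, all 56 had at least 1 probe called higher, 38 had every probe called higher, and none had probes called in opposite directions. In 54 of them all probes had the same sign. The exceptions were Rpsa and Rps3, where the dimmest probe gave -0.02 (SE 0.09) and -0.10 (SE 0.07) and did not pass. The median difference was 0.39 for the brightest probes of these genes and 0.37 for their other probes. Ribosomal protein genes have many near-identical processed copies in the genome. In 11 kept probes the position given by the files lay on another chromosome than the gene, and 10 of these were higher. They included the brightest probes of Rps27 (chr9:114891509-114891568 in mm9, with the gene on chromosome 3) and Rps29 (chr2:172335021-172335079, with the gene on chromosome 12), so the source of that signal is uncertain. This count compared chromosomes only. The brightest Rps2 probe, at chr17:42864841-42864900, lay far from the other Rps2 probe, at chr17:24857583-24857642, so its source is uncertain too.

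Paralogues are close copies of a core protein that can take its place, and here they were taken by gene name. Of 6 measured, 2 were higher, 1 was lower and 3 did not pass. The pair of Rpl3 and Rpl3l moved in opposite directions. Rpl3 was -0.85 at the lowest, -0.47 at the median and -0.19 at the highest in wild type, and -0.20, 0.12 and 0.36 in transgenic mice, and transgenic array 7 lay just below the array labelled wild type 4. It rose by 0.56 (SE 0.10, adjusted p 0.00018), and a second probe gave 0.40 (SE 0.07). The files place its brightest probe on only 7 bases, chr15:79908211-79908217 in mm9, so the placement of that probe is uncertain. Rpl3l was 0.03, 0.10 and 0.30 in wild type and -0.54, -0.24 and -0.03 in transgenic mice, with no overlap. It fell by 0.37 on the log2 scale (SE 0.08, adjusted p 0.00099), and its ratio fell by 22.8%. With arrays centred on their median in place of loess, Rpl3l was -0.06 (adjusted p 0.90).

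Because the genes are alike, a pair of probes that differ between them is shown. The Rpl3 sequence is that of its second probe; the difference of 0.56 rests on the brightest probe, whose sequence is not shown. The pair of Rpl3 and Rpl3l probes with the best overlap shared a stretch of 27 bases, in which 20 letters were the same and 7 differed. Capitals mark the letters that differ within that stretch, which is the first 27 bases of the Rpl3 probe and the last 27 of the Rpl3l probe.
Rpl3 (second probe, chr15:79908489-79908772 in mm9, minus strand, across an exon junction): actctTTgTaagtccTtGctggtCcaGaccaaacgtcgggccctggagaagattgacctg
Rpl3l (chr17:24872413-24872681 in mm9, plus strand, across an exon junction): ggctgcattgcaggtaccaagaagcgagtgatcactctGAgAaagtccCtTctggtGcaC

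The contrast within each array, Rpl3 minus Rpl3l, removes what both share. It ran from -1.15 to -0.27 in wild type and from -0.07 to 0.66 in transgenic mice, and no array overlapped. The array labelled wild type 4 had -0.27, the highest of its group. The group means were -0.58 ± 0.32 (SD, n = 6) and 0.35 ± 0.28 (SD, n = 7), a difference of 0.93 (two-sided exact permutation test, p 0.000583, the smallest that 1716 regroupings allow). With labels exchanged within slides only, the exact p was 0.00617, the smallest that 162 regroupings allow. This contrast was positive in every scaling tried, from 0.80 with the Agilent log ratio to 1.06 with Cy5 alone, and it was 0.91 with median centring. Without the array labelled wild type 4 it was 0.99. With the second Rpl3 probe, the one shown, in place of the brightest, an alternative chosen after seeing the data, the contrast ran from -0.82 to -0.44 in wild type and from -0.02 to 0.41 in transgenic mice, a difference of 0.77 (two-sided exact permutation test, p 0.000583). Since both genes were chosen with earlier results known, the p describes these arrays.

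**Figure D4:**
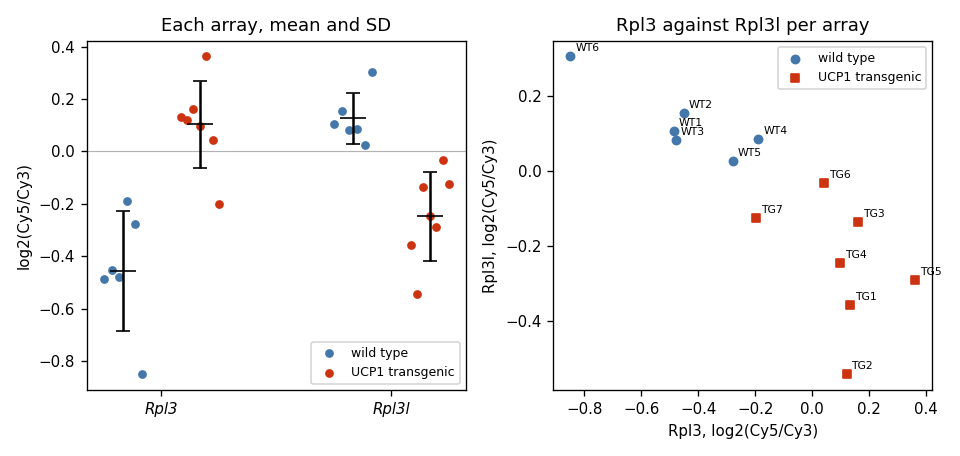
Left, log2 ratio of Rpl3 and Rpl3l on each array (points) with group mean and SD (bars). Right, Rpl3 (horizontal axis) against Rpl3l (vertical axis) per array, with wild-type arrays at upper left and transgenic arrays at lower right; Rpl3l ran from 0.03 to 0.30 in wild type and from -0.54 to -0.03 in transgenic arrays, where it was called lower with loess and reached -0.06 without passing under median centring.

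The other 5 pairs of a core gene and its paralogue were compared the same way, added after the data were seen, with p adjusted over all 6 pairs. Rps4x, the X-linked small-subunit gene, rose by 0.54 (SE 0.07) without overlap. Rps4y2, which RefSeq names Rps4l, had a difference of -0.01 (SE 0.09, 95% interval -0.21 to 0.19). Its probe was matched to a RefSeq record of the non-coding class. That probe was also dim, at percentile 39.5 of brightness over all genes, against 95.1 for Rps4x. Both points limit what the contrast of this pair can show. The contrast of this pair differed by 0.55 between groups (exact p 0.000583, adjusted 0.00175), and the Rpl3 pair had the same adjusted p of 0.00175. In the scalings tried this contrast ran from 0.41 with Cy5 alone to 0.74 with median centring. Rps27 rose by 0.21 (SE 0.07, adjusted p 0.031), a call that ended with Cy5 alone (adjusted p 0.15) and without 5 of the single arrays. Rps27l had 0.03 (SE 0.06, adjusted p 0.78). Their contrast of 0.18 did not pass after adjustment (exact p 0.0396, adjusted 0.0792).

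In the remaining 3 pairs the contrast did not pass. Rpl36al rose by 0.53 (SE 0.09, adjusted p 0.00012) beside the 0.65 of Rpl36a (contrast 0.13, exact p 0.172). With the Agilent log ratio that contrast was 0.21 (exact p 0.00175, not adjusted). Rpl22l1, known to be raised when Rpl22 is lost, rose by 0.34 (SE 0.13, adjusted p 0.046). That call ended with the Agilent log ratio (adjusted p 0.093), with Cy5 alone (adjusted p 0.11) and without 9 of the single arrays. The contrast of Rpl22 minus Rpl22l1 was -0.13 (exact p 0.501). Rpl7l1 differed by 0.12 (SE 0.07, adjusted p 0.25), and the contrast of Rpl7 minus Rpl7l1 was 0.07 (exact p 0.449), or 0.29 in the authors' value table (exact p 0.0111, not adjusted). A p that misses the threshold does not show that these genes act alike.

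Proteins of the mitochondrial ribosome form a separate machine that translates the mRNAs of the mitochondrial genome. Of 76 measured genes, 16 were higher (21.1%) and 11 lower (14.5%), near the background of 16.9% and 16.1% of all genes, with a median of 0.00. No test between the 2 families was run.

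Genes that build ribosomes were counted from lists, again chosen with earlier results known. Of 51 measured ribosome assembly factors, 28 were higher (54.9%) and none lower (median 0.23), against 16.9% and 16.1% of all genes. Noc4l, needed for the small subunit, rose by 0.80 (SE 0.09), and Gnl3, the nucleolar GTPase nucleostemin, rose by 0.72 (SE 0.08). Among 17 genes of RNA polymerase I and its factors, which make ribosomal RNA, 6 were higher (35.3%) and 1 lower, against the same shares. Polr1a, the largest subunit, rose by 0.73 (SE 0.07) and Polr1c by 0.38 (SE 0.06), while Polr2l, a subunit shared by the polymerases, fell by 0.34 (SE 0.07).

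Of 20 measured other genes known for TOP mRNAs, 9 were higher (45%) and 2 lower (median 0.22), against 16.9% and 16.1% of all genes. Eef1a1, the elongation factor that delivers aminoacyl-tRNA, ran from -1.29 to -0.90 in wild type and from 0.31 to 0.60 in transgenic mice, a rise of 1.52 (SE 0.07, adjusted p 4.2e-12). Btf3, a part of the nascent chain complex, rose by 0.77 (SE 0.06). Eef1g, of the exchange complex for the same factor, fell by 0.47 (SE 0.07), and Vim, the filament protein vimentin, fell by 0.25 (SE 0.07). Among 20 regulators of ribosome output, 3 were higher (15%) and 6 lower (30%), against 16.9% and 16.1% of all genes, so the share called higher was not above the background. The genes named next are single members of that list. Eif4ebp1, the mTOR target that blocks cap-dependent initiation, rose by 1.98 (SE 0.09). Myc, an activator of ribosome genes, rose by 1.01 (SE 0.14). Ddit4, an inhibitor of mTOR signalling, fell by 1.46 (SE 0.34), with the array labelled wild type 4 at -1.36 and the other wild-type arrays from 0.61 to 1.24. It fell by 1.84 without that array. Larp1, which binds TOP mRNAs, fell by 0.36 (SE 0.08). With median centring the calls of Polr1c, Polr2l, Eef1g, Vim, Ddit4 and Larp1 ended, and Vim turned sign to 0.03.

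The number of members called depended on the scaling within arrays. With each array centred on its median and no loess, 26 members were higher and 0 lower, against 6.02% and 1.53% of all genes, and the median member difference was 0.70, while the median of all genes moved to 0.14. Under that scaling 1039 genes were higher and 264 lower, against 2910 and 2785 with loess. Among the named members, the increases of Rplp0, Rplp2, Rps3, Rps6, Rps27, Rpl5, Rpl10, Rpl13a, Rpl22l1 and Rpl41 no longer passed there, with differences from 0.58 to 0.81. With Agilent's own log ratio 76 members were higher and 1 lower, against 20% and 18.3% of all genes. With Cy5 alone 60 were higher and 1 lower, against 16.1% and 14.1%. The authors' deposited values gave 76 higher and 1 lower, against 15.6% and 16.9%.

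**Figure D5:**
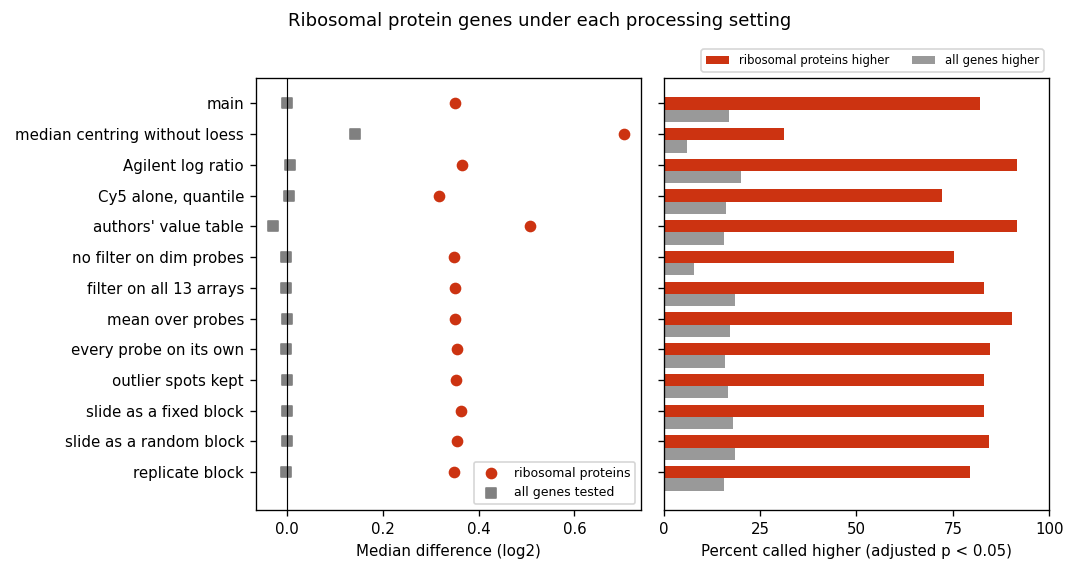
Left, median log2 difference of the ribosomal protein genes (red) and of all genes tested (grey) under each processing setting; right, percent of each called higher at an adjusted p under 0.05. The red points lie right of the grey ones in every setting shown, with medians from 0.32 to 0.70, and the red bar is shortest with median centring.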

How the data were processed

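The deposited scanner files hold intensity values of both channels with their local backgrounds, well-above-background and outlier flags, and a log10 ratio of the processed signals, per the file headers (Agilent Feature Extraction 10.5.1.1, also in the submitters' processing notes). The deposited value table was taken as the authors' log2 values. Its normalization is not given in the sources used here, and it served as an alternative.

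Mean signals were corrected with normexp (offset 50) and log2 ratios normalized by loess within arrays (limma 3.58.1, R 4.3.3). Control and outlier spots (278 to 377 per array) were left out, spots of a probe were averaged, probes were kept if the Cy5 flag called them well above background on 6 or more of the 13 arrays, and the brightest kept probe stood for a gene. Groups were compared with lmFit and eBayes over 17257 genes with Benjamini-Hochberg adjustment, and pairs of genes with exact permutation tests. Samples are individual mice per the labels, and their number limits the precision. In data simulated on 17134 genes, 58 of 100 genes changed by 0.35 and 98 of 100 changed by 0.7 were recovered, with 8 false calls. Only 200 genes were changed there, against 2910 called higher and 2785 lower in the data. The adjustment was therefore stricter in the simulation, and its recovery does not carry over to the data.

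Genes were named by rule: Ucp1, a list of core genes and paralogues, the 8 members with the largest increases and up to 8 with the largest decreases, and up to 2 genes each way per pathway list. Of these members, 1 is not reported here by name and is left out of the plots by gene, but is in the counts. Members and lists were chosen with earlier results of these data known. Gene names were matched to RefSeq for 83 members (75 by accession). Probe positions are mm9, per the file headers.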

Additional observations from a re-analysis of the deposited data

Results flagged for a closer look

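In 8 of 104 groups tested the most extreme array stood apart from the others of its group by Dixon's criterion, which chance alone meets in about 1 group in 20. Ucp1 was 0.45 on the array labelled wild type 4, with the next wild-type array at -2.82. On the same array Ddit4 was -1.36, with the next at 0.61. Rpl7 was 0.40 on wild-type array 6, with the next at 0.10. Rps6 was -0.041 on wild-type array 2, above the next at -0.18. Polr1a was -0.59 on wild-type array 3, below the next at -0.45. Rpl10 was 0.040 on transgenic array 7, below the next at 0.28. Rpl12 was 0.14 on transgenic array 2, below the next at 0.41, over the 6 transgenic arrays with a value. Noc4l was -0.044 on transgenic array 6, below the next at 0.23. Rpl7 passed the threshold once wild-type array 6 was left out (0.24, limma adjusted p 0.013).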

How the results depend on the processing

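With median centring in place of loess 26 members were higher and 0 lower, against 6.02% and 1.53% of all genes. Against these same shares, 9 ribosome assembly factors, 2 RNA polymerase I genes, 4 other TOP genes and 3 mitochondrial ribosomal protein genes were higher. Under that setting 0 genes of the polymerase, TOP, regulator and mitochondrial lists were lower. By single probes 154 members' probes were higher, against 16% of all kept probes. Cy5 alone gave 2 polymerase I genes lower, against 14.1% of all genes. The authors' value table gave 1 other TOP gene and 3 mitochondrial ribosomal protein genes lower, against 16.9% of all genes. Leaving out each array in turn gave 63 to 69 members higher and 1 lower (15% to 17% and 14.6% to 16.1% of all genes), 7 to 12 mitochondrial genes lower and 0 to 1 assembly factors lower. The contrast of Rpl3 and Rpl3l kept its direction and passed in each setting in which it was run, from 0.82 to 1.00 with single arrays left out.

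Signs turned in values near 0. Rps27l was -0.029 with the Agilent log ratio, -0.032 with Cy5 alone and -0.0020 at the lowest with single arrays left out (0.068 at the highest). Rps4y2 was 0.13 with median centring, 0.028 with Cy5 alone, 0.019 with the replicate block and from -0.073 to 0.046 with single arrays left out. Vim was 0.027 with median centring. Rpl22 minus Rpl22l1 was 0.032 with the Agilent log ratio and 0.0090 over the mean of probes, and Rpl7 minus Rpl7l1 was -0.0088 with Cy5 alone. Over the named genes, 1007 alternative values kept their direction and side of the threshold, 23 passed newly, 36 lost the call and 14 turned sign. The contrast of Rps27 and Rps27l lost an unadjusted p under 0.05 with Cy5 alone and without 7 of the single arrays. The cause was not tested.

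The deviations of same-numbered samples correlated at 0.07 to 0.23 in the 4 of 6 pairs that share a slide and at -0.23 and -0.16 in the 2 that do not, so the numbers were not taken to pair the samples. With the replicate number as a block 66 members were higher and 1 lower, against 15.8% and 15.3% of all genes. That fit draws nothing from transgenic array 7, which has no wild-type counterpart; without that array and with no block 67 were higher. Signal near background limits Rpl10l and Rpl39l.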
